A study of Mus musculus with 20 samples.

Results

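Left kidneys taken from 5 male KDM6ACtrl mice at day 7 of unilateral ureteral obstruction (UUO) were compared with those of 5 male KDM6ACtrl mice taken 7 days after sham surgery. These 10 of the 20 kidneys of the series were picked by the genotype Pax8Cre+ and the surgery in the sample labels. In UUO the left ureter was tied off; sham mice had the same operation without the tie. KDM6ACtrl mice carry the Pax8-Cre transgene, which is active along the nephron and collecting duct, with no floxed Kdm6a, so all 10 mice express the recombinase and none of them lacks the gene by design. By the study's methods the mice were age-matched, and their age in weeks and their strain are not given for this genotype in the sources used here. RNA came from homogenates of whole kidneys and was enriched for polyadenylated transcripts. The other 10 kidneys are from KDM6ATubKO mice (Pax8Cre+ with floxed Kdm6a, 5 UUO and 5 sham). They enter the estimate of spread and 1 comparison at the end.

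The nephron filters plasma in the glomerulus and then passes the fluid along a chain of segments, each with its own transporters. The proximal tubule takes back most solutes, and runs on fatty acids and on substrates other than glucose. The thick ascending limb, the distal convoluted tubule and the connecting tubule recover salt, magnesium and calcium, and the collecting duct sets water, potassium and acid. When urine cannot leave, the tubule dilates and its cells lose specialised functions, while immune cells enter and fibroblasts are activated. Because injury, matrix and macrophage genes are the known part of this response, they were set aside here. Of those measured, 22 of 22 injury genes, 25 of 25 fibroblast and matrix genes and 23 of 24 macrophage and monocyte genes rose.

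Expression was given as FPKM, mapped fragments scaled to transcript length and to the total of the library, for 13842 genes. Differences were taken on log2(FPKM + 1), which understates the change of genes near 0. Genes that rose or fell in UUO were those for which limma gave a Benjamini-Hochberg adjusted p below 0.05 over all genes and the fold change was at least 1.5. By this rule 4519 genes (32.6%) rose and 1121 genes (8.1%) fell, and the median log2 fold change of all genes was 0.35. The zero point depends on scaling. After rescaling each kidney to its upper quartile the all-gene median was 0.14, and 22.3% of genes rose and 12.8% fell. List counts below are therefore given with the rescaled counts where these differ much, and a share near these percentages is not particular to a list. Genes below 0.5 FPKM in the sham mean entered the table through groups where they were higher, so counts that include them are descriptions only.

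Several kidneys stood apart. Among sham kidneys, mouse 3 had raised injury genes (mean log2(FPKM + 1) of the list 4.03, against 2.57 to 2.96 in the other shams), macrophage genes and mitosis genes. Among UUO kidneys, mouse 2 had the most urothelial RNA, mouse 1 the least, and mouse 5 had adrenal and fat RNA (below). Pearson's r across genes was 0.960 to 0.977 between UUO kidneys and 0.975 to 0.986 between sham kidneys. The mouse identifiers fall in 2 number series, each with UUO and sham mice, but the full number before the dash differs between the surgeries, so any effect of it and of surgery cannot be told apart.

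Proximal tubule genes fell in all 3 of its segments. In segment 1, the first convoluted stretch, 9 of 11 genes fell (median log2 fold change -1.30); in segment 2 all 9 fell (median -2.10), and in segment 3, which dips into the outer medulla, 8 of 9 fell (median -1.99). In whole-kidney RNA, fewer cells of a type and less RNA per cell cannot be told apart, here and in every list below. Slc5a2, which encodes the glucose carrier SGLT2 of segment 1, had 9.72, 15.4, 29.5, 26.4 and 22.4 FPKM in UUO kidneys, against 47.3, 26.3, 58.1, 56.8 and 67.7 FPKM in sham kidneys (log2 fold change -1.30, standard error 0.29, adjusted p = 0.000561). Sham mouse 2 lay within the UUO range, so the groups overlapped. Slc34a1, the phosphate carrier of the brush border, averaged 199.99 ± 44.8 FPKM in UUO kidneys and 526 ± 126 FPKM in sham kidneys (log2 fold change -1.38, standard error 0.29, adjusted p = 0.000287). Slc6a19, the main carrier of neutral amino acids, had the largest fall of the segment 1 list (-2.44). Slc2a2, the basolateral glucose exit carrier, averaged 14.7 FPKM in UUO kidneys and 21.7 FPKM in sham kidneys and did not pass the fold limit (-0.52); without UUO mouse 3 or sham mouse 1 it did (-0.60 and -0.63).

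Segment 2 is where organic anions, among them many drugs, are taken up from blood. Slc22a6 and Slc22a8, the carriers OAT1 and OAT3, fell by 2.10 and 2.77 on the log2 scale. Slc22a8 had 38.4, 30.6, 27.9, 20.3 and 7.2 FPKM in UUO kidneys, against 141, 149, 142, 208 and 144 FPKM in sham kidneys, with no overlap. Slco1a1, an organic anion carrier under androgen control in mouse kidney, had 1.58, 0.537, 13.5, 10.3 and 5.64 FPKM in UUO kidneys, against 37.0, 82.7, 108, 32.7 and 108 FPKM in sham kidneys (log2 fold change -3.63, standard error 0.51, adjusted p = 3.36e-06). Slc27a2, which activates very long fatty acids, averaged 453 ± 95.5 FPKM in UUO kidneys and 1127 ± 48.6 FPKM in sham kidneys and had the smallest fall of its list (-1.34). In segment 3, Slc7a13, a carrier for aspartate, glutamate and cystine, had 59.3, 13.7, 79.5, 68.5 and 14.5 FPKM in UUO kidneys, against 210.3, 511, 462, 317 and 463 FPKM in sham kidneys (log2 fold change -3.31, standard error 0.49, adjusted p = 7.44e-06). Every UUO kidney lay below every sham kidney, and UUO mice 2 and 5 were lowest. Slc22a7 (OAT2) fell by 3.04 on the log2 scale, and Cyp7b1, an oxysterol hydroxylase, fell by 2.56. The exception in segment 3 was Slc5a1, the glucose carrier SGLT1, with 23.1, 21.5, 18.8, 26.4 and 23.5 FPKM in UUO kidneys, against 17.8, 30.1, 22.6, 21.97 and 19.1 FPKM in sham kidneys (log2 fold change 0.03, standard error 0.15, adjusted p = 0.841).

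The proximal tubule also takes filtered proteins back by endocytosis, through the receptors megalin (Lrp2) and cubilin (Cubn). Both fell: Lrp2 had 30.5, 26.8, 42.6, 26.8 and 21.2 FPKM in UUO kidneys, against 77.4, 136, 127, 96.8 and 125 FPKM in sham kidneys (log2 fold change -1.90, standard error 0.21, adjusted p = 1.54e-07), and Cubn averaged 10.9 ± 1.86 FPKM in UUO kidneys and 34.01 ± 5.52 FPKM in sham kidneys (-1.56). Amn, the partner that carries cubilin to the membrane, averaged 28.6 FPKM in UUO kidneys and 32.2 FPKM in sham kidneys (log2 fold change -0.16, standard error 0.12, adjusted p = 0.237). Of 8 genes on the list, 3 fell (5 after upper quartile rescaling) and none rose, and Ocrl, a phosphatase of endosomes, had the highest value (0.39).

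Across the 20 measured Slc22 genes, the family of organic ion carriers, 15 fell and 1 rose (median -1.42). Several of those that fell are also on the lists for segments 2 and 3, so these counts overlap. The riser was Slc22a15 (0.92), at 1.3 FPKM in UUO kidneys and 0.209 FPKM in sham kidneys on average. Slc22a12, the urate carrier URAT1, fell by 1.87 on the log2 scale. Genes whose kidney levels depend on androgen in male mice overlap with segments 2 and 3, and 9 of 10 fell (median -2.15). Kap, kidney androgen-regulated protein, had 3818, 2862, 9904, 6054 and 3189 FPKM in UUO kidneys, against 11450.2, 13284, 16697, 12431 and 19024 FPKM in sham kidneys (log2 fold change -1.63, standard error 0.30, adjusted p = 6.73e-05). It took 0.92% to 3.13% of all FPKM in UUO kidneys and 3.19% to 5.27% in sham kidneys. Cyp2d9 averaged 13.0 ± 1.82 FPKM in UUO kidneys and 188 ± 50.8 FPKM in sham kidneys (-3.72), and Gusb, the lysosomal enzyme beta-glucuronidase, was the member without a change (0.14).

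In the thin limbs of the loop of Henle, genes moved both ways. Of 7 thin limb genes, 5 rose and 2 fell (2 and 2 after upper quartile rescaling). Aqp1, the water channel of the proximal tubule and thin descending limb, averaged 86.3 ± 19.2 FPKM in UUO kidneys and 209 ± 32.1 FPKM in sham kidneys (log2 fold change -1.28, standard error 0.16, adjusted p = 9.51e-07). Sptssb, a subunit of the enzyme that starts sphingolipid synthesis, had 1.93, 96.2, 12.9, 34.98 and 18.9 FPKM in UUO kidneys, against 4.23, 1.24, 1.78, 3.57 and 2.65 FPKM in sham kidneys (log2 fold change 2.47, standard error 0.66, adjusted p = 0.00241). UUO mouse 2 was highest and mouse 1 lay within the sham range, and the same mice were highest and lowest for the urothelial genes described below, whose part in this value was not tested. Slc14a2, the tubular urea carrier, had 2.43, 0.363, 6.0, 3.02 and 2.89 FPKM in UUO kidneys, against 17.1, 2.9, 2.94, 7.37 and 10.6 FPKM in sham kidneys (log2 fold change -1.14, standard error 0.50, adjusted p = 0.0466). The UUO and sham values overlapped, and its call was lost on leaving out any 1 of UUO mice 1, 2, 4 and 5 or sham mice 1, 4 and 5 (adjusted p up to 0.147).

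In the thick ascending limb 9 of 12 genes fell and 1 rose (median -0.93). Slc12a1, the sodium-potassium-chloride cotransporter NKCC2 that loop diuretics block, had 56.4, 64.2, 54.4, 76.3 and 48.9 FPKM in UUO kidneys, against 275, 202, 146, 184 and 178 FPKM in sham kidneys (log2 fold change -1.68, standard error 0.28, adjusted p = 2.16e-05). Kcnj1, the potassium channel ROMK, fell by 0.98 on the log2 scale, and Tmem207 fell most (-2.43). Umod, which encodes uromodulin, the most abundant urinary protein, had 535, 323, 334, 457 and 373 FPKM in UUO kidneys, against 570.3, 564, 443, 601 and 455 FPKM in sham kidneys. The groups overlapped and it did not pass (log2 fold change -0.40, standard error 0.18, adjusted p = 0.0521), although after upper quartile rescaling it did (-0.68). Claudins of this segment also diverged. Claudin 10 (Cldn10), which forms sodium pores, fell (-0.89), claudin 16 (Cldn16), needed for magnesium uptake between cells, averaged 10.8 FPKM in UUO kidneys and 7.62 FPKM in sham kidneys (0.44, not called), and claudin 14 (Cldn14), which blocks claudin 16 pores, rose (1.06). Cldn14 had 1.63, 0.511, 1.46, 1.92 and 0.789 FPKM in UUO kidneys, against 0, 0, 0.181, 0.0343 and 0.046 FPKM in sham kidneys. Of the macula densa genes, the patch of cells that senses salt, only 2 of 4 were in the table. Ptgs2 (cyclooxygenase 2), which other cells also express, averaged 3.53 ± 2.09 FPKM in UUO kidneys and 0.22 ± 0.232 FPKM in sham kidneys (log2 fold change 1.79, standard error 0.23, adjusted p = 1.19e-06).

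In the distal convoluted tubule 3 of 10 genes fell and 1 rose; after rescaling 5 fell and none rose. The calcium-binding protein parvalbumin (Pvalb), a marker of its early part, fell most of all genes outside the 3 lists set aside. It had 0.195, 0, 0, 0.143 and 0 FPKM in UUO kidneys, against 14.9, 20.02, 20.6, 15.0 and 16.2 FPKM in sham kidneys (log2 fold change -4.09, standard error 0.15, adjusted p = 2.82e-12). Slc12a3, the thiazide-sensitive sodium chloride cotransporter NCC of the same cells, had 14.8, 16.8, 12.9, 22.3 and 21.2 FPKM in UUO kidneys, against 35.8, 38.3, 30.0, 45.0 and 35.5 FPKM in sham kidneys (log2 fold change -1.04, standard error 0.15, adjusted p = 5.86e-06). Kcnj10, their basolateral potassium channel, fell (-1.24). Trpm6, the magnesium channel, averaged 3.03 FPKM in UUO kidneys and 2.56 FPKM in sham kidneys (0.19), and Wnk4, a kinase that acts on NCC, averaged 20.6 FPKM in UUO kidneys and 30.5 FPKM in sham kidneys (-0.53). Neither passed, but Wnk4 passed without sham mouse 3 (-0.62). Thus parvalbumin was at or near 0 in UUO kidneys while other genes of the segment kept a measurable level.

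In the connecting tubule the genes of calcium transport split. Calb1 (calbindin-D28k), which buffers calcium inside the cell, had 15.0, 12.4, 7.24, 8.76 and 3.85 FPKM in UUO kidneys, against 57.6, 85.1, 52.98, 73.5 and 41.4 FPKM in sham kidneys (log2 fold change -2.67, standard error 0.31, adjusted p = 2.81e-07). S100g (calbindin-D9k) averaged 114 ± 32.1 FPKM in UUO kidneys and 521 ± 95.8 FPKM in sham kidneys (-2.22). Slc8a1, the sodium-calcium exchanger that moves calcium out to the blood, fell (-0.99). The apical entry channels rose: Trpv5 had 11.8, 5.96, 15.1, 9.76 and 9.01 FPKM in UUO kidneys, against 3.38, 5.38, 4.61, 6.29 and 3.94 FPKM in sham kidneys (log2 fold change 0.95, standard error 0.24, adjusted p = 0.00156), and Trpv6 averaged 3.3 ± 0.625 FPKM in UUO kidneys and 0.307 ± 0.0486 FPKM in sham kidneys (log2 fold change 1.71, standard error 0.16, adjusted p = 1.73e-08). Trpv5 lost its call under quantile normalization (0.56, adjusted p = 0.0543). Klk1, tissue kallikrein, fell (-2.55), at 215 FPKM in UUO kidneys and 1246 FPKM in sham kidneys on average.

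The principal cells of the collecting duct had the fewest calls of any segment with more than 2 measured genes. Of 12 genes only Aqp4, the basolateral water channel, fell (-1.66), and none rose; 3 fell after rescaling. Aqp2, the water channel that vasopressin brings to the apical membrane, had 68.9, 83.9, 32.7, 57.8 and 32.5 FPKM in UUO kidneys, against 90.2, 35.9, 28.7, 119.9 and 98.3 FPKM in sham kidneys (log2 fold change -0.32, standard error 0.37, adjusted p = 0.452). Both groups ranged widely and overlapped. Aqp3 averaged 42.2 ± 27.7 FPKM in UUO kidneys and 61.2 ± 11.1 FPKM in sham kidneys (log2 fold change -0.70, standard error 0.31, adjusted p = 0.0518), and passed without UUO mouse 2 (-1.01) or without sham mouse 3 (-0.78). Avpr2, the vasopressin receptor, averaged 2.2 FPKM in UUO kidneys and 3.46 FPKM in sham kidneys (-0.48), and passed without UUO mouse 1 or sham mouse 2 (-0.62 and -0.61). Scnn1g and Scnn1b, subunits of the sodium channel ENaC, were at -0.20 and -0.04, and Hsd11b2, which shields the mineralocorticoid receptor from glucocorticoids, was at -0.04, all on the log2 fold change scale.

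Intercalated cells, which secrete acid (type A) or bicarbonate (type B), sit between the principal cells. Of 10 shared and type A genes 6 fell and 1 rose (median -0.68), and of 5 type B genes 4 fell (median -1.13). Slc4a1, the chloride-bicarbonate exchanger AE1 of type A cells, had 0.333, 0.421, 0.449, 0.874 and 0.729 FPKM in UUO kidneys, against 9.05, 5.06, 4.85, 4.46 and 6.19 FPKM in sham kidneys (log2 fold change -2.12, standard error 0.19, adjusted p = 1.17e-08). Every UUO kidney lay below every sham kidney. Rhbg, an ammonia channel, fell by 1.76 on the log2 scale. Slc26a4 (pendrin), the apical exchanger of type B cells, had 6.55, 5.04, 5.33, 5.0 and 3.65 FPKM in UUO kidneys, against 14.7, 17.3, 14.2, 16.9 and 14.6 FPKM in sham kidneys (log2 fold change -1.45, standard error 0.16, adjusted p = 1.77e-07). Atp6v1b1, a subunit of the proton pump, averaged 13.7 FPKM in UUO kidneys and 21.7 FPKM in sham kidneys (-0.63), and its call was lost without UUO mouse 3 (-0.53) or sham mouse 4 (-0.55). Foxi1, the transcription factor that specifies both types, averaged 12.9 ± 1.94 FPKM in UUO kidneys and 16.6 ± 3.12 FPKM in sham kidneys (log2 fold change -0.33, standard error 0.16, adjusted p = 0.0723). The gene that rose was Dmrt2, a transcription factor of type A cells (0.72). After upper quartile rescaling it was not called (0.52), and of the shared and type A genes 7 fell and 0 rose.

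**Figure D1:**
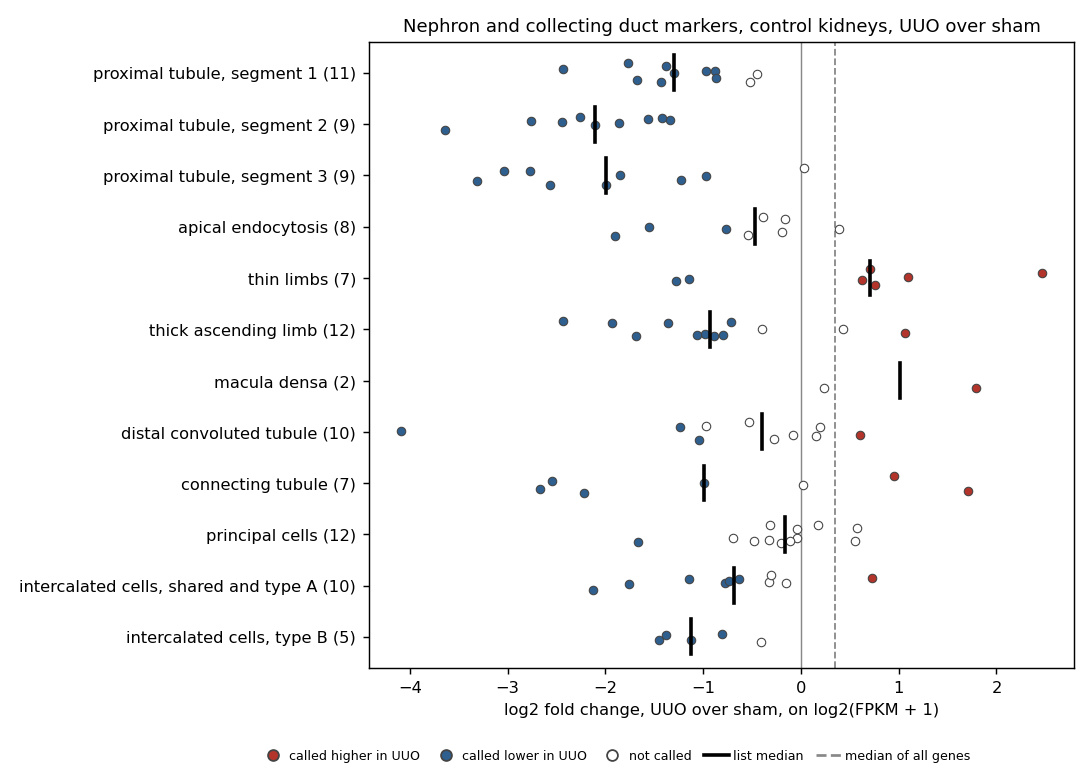
Log2 fold change (UUO over sham, on log2(FPKM + 1), horizontal axis) of each marker gene, with nephron and collecting duct segments in anatomical order from top to bottom and the number of genes measured in parentheses. Red points were called higher and blue points lower in UUO, open points were not called, black bars are list medians, and the dashed line is the all-gene median of 0.35; the 3 proximal tubule lists lie furthest left and principal cells lie near 0.

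**Figure D2:**
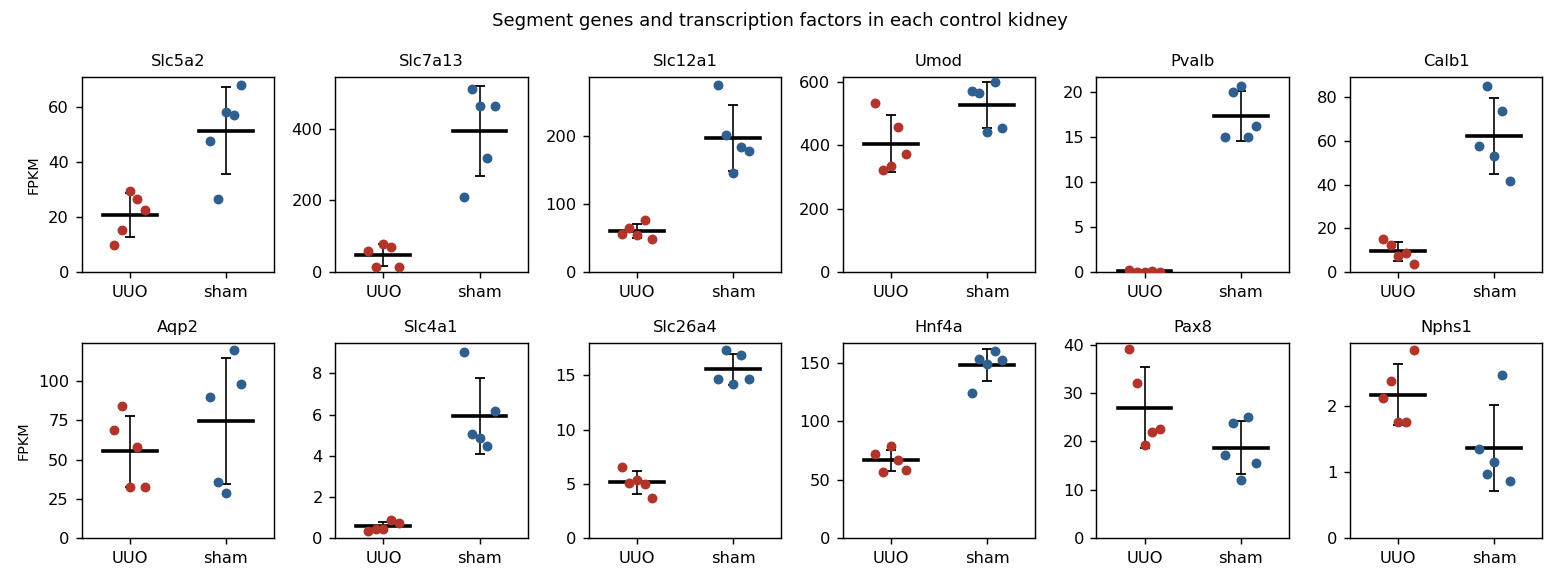
FPKM (vertical axes, each from 0) of 12 genes in each of 5 UUO kidneys (red, left) and 5 sham kidneys (blue, right), with the mean (bar) and SD (whiskers). Pvalb, Slc7a13, Slc12a1, Calb1, Slc4a1, Slc26a4 and Hnf4a show no overlap between the groups, while Slc5a2, Umod, Aqp2, Pax8 and Nphs1 overlap.

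The transcription factors that keep these cells specialised did not fall together. Of 19, 6 fell (10 after rescaling), and none rose. Hnf4a, a nuclear receptor needed for proximal tubule maturation, had 72.3, 56.3, 78.5, 66.8 and 58.3 FPKM in UUO kidneys, against 124, 154, 149, 161 and 152 FPKM in sham kidneys (log2 fold change -1.15, standard error 0.14, adjusted p = 6.14e-07). Ppara, the receptor that drives fatty acid oxidation, fell (-1.499), and Nr1h4, the bile acid receptor FXR, fell by 1.28. Lhx1 and Emx1, homeobox factors, also fell (-1.35 and -0.90). In contrast Pax8, the factor whose promoter drives the Cre, averaged 27.0 ± 8.32 FPKM in UUO kidneys and 18.7 ± 5.5 FPKM in sham kidneys (log2 fold change 0.51, standard error 0.23, adjusted p = 0.0524), and it passed, as higher in UUO, when UUO mouse 3, sham mouse 2 or sham mouse 4 was left out (0.60 to 0.62). Tfcp2l1, a factor of the distal nephron and collecting duct, and Irx3 and Pou3f3, factors of the loop, lay between -0.11 and 0.09.

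Of factors that build the kidney in the embryo, 10 of 15 were measured, and 6 rose and none fell. Of the 10, 3 were below 0.5 FPKM in the sham mean and entered the table through groups where they were higher. Sox4 had 81.4, 89.9, 51.7, 78.4 and 85.5 FPKM in UUO kidneys, against 7.19, 5.84, 9.56, 7.04 and 4.31 FPKM in sham kidneys (log2 fold change 3.34, standard error 0.16, adjusted p = 9.84e-12). Its relative Sox11 had 2.95, 3.24, 2.06, 2.22 and 2.48 FPKM in UUO kidneys, against 0.038, 0.0199, 0.26, 0.0246 and 0.0249 FPKM in sham kidneys (log2 fold change 1.74, standard error 0.11, adjusted p = 1.23e-10). Wnt4, the signal that turns mesenchyme to epithelium, averaged 7.02 ± 1.77 FPKM in UUO kidneys and 1.38 ± 0.896 FPKM in sham kidneys (1.80), and Cd24a and Prom1, surface proteins of renal progenitor cells, rose by 1.40 and 1.21. Sall1, Pax2, Osr1 and Wt1, factors of the early nephron, lay between -0.13 and 0.18 and were not called.

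In the glomerulus, of 14 podocyte genes 6 rose (42.9%, against 32.6% of all genes) and none fell. After rescaling 4 rose, where 22.3% of all genes did. The 4 that define the cell did not pass. Nphs1 (nephrin), of the slit diaphragm, had 2.12, 2.37, 1.75, 1.76 and 2.84 FPKM in UUO kidneys, against 1.35, 0.969, 1.15, 2.46 and 0.865 FPKM in sham kidneys (log2 fold change 0.45, standard error 0.17, adjusted p = 0.0206). It passed without sham mouse 4 (0.60). Podxl (podocalyxin) and Wt1 were at 0.23 and 0.16 on the log2 fold change scale. Tcf21, a factor that podocytes share with interstitial fibroblasts, averaged 26.1 ± 10.5 FPKM in UUO kidneys and 4.14 ± 1.64 FPKM in sham kidneys and rose most (2.39). For mesangial and juxtaglomerular cells, 4 of 6 genes rose; Ren1, renin, averaged 14.4 ± 7.33 FPKM in UUO kidneys and 11.9 ± 5.56 FPKM in sham kidneys (log2 fold change 0.27, standard error 0.35, adjusted p = 0.503), Serpine2, a protease inhibitor, rose most (2.80), and Agtr1a, the angiotensin receptor, was at -0.41.

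Endothelial counts depended on scaling. Of 14 shared endothelial genes 8 rose, and 2 after upper quartile rescaling; none fell under either. Pecam1 and Cdh5, adhesion proteins of all endothelium, rose by 0.65 and 0.75 on the log2 scale, and both lost their calls after rescaling (0.39 and 0.50). Pecam1 also lost its call without UUO mouse 5, sham mouse 2 or sham mouse 5 (0.56 to 0.58). Kdr, a receptor for VEGF, averaged 3.92 FPKM in UUO kidneys and 4.78 FPKM in sham kidneys (-0.23), and Tek, a receptor for angiopoietin, averaged 5.45 FPKM in UUO kidneys and 6.19 FPKM in sham kidneys (-0.14), and neither was called. Sox18 rose most (1.30). Among genes of glomerular and vasa recta endothelium, 5 of 8 rose. Plat, tissue plasminogen activator, had 29.7, 21.2, 22.5, 20.1 and 20.8 FPKM in UUO kidneys, against 7.16, 2.9, 3.88, 4.93 and 7.71 FPKM in sham kidneys (log2 fold change 1.97, standard error 0.19, adjusted p = 4.11e-08), and Fbln5, an elastic fibre protein, rose most (2.13), while Ehd3, of glomerular capillaries, and Plvap, of fenestrated peritubular capillaries, did not pass (0.12 and 0.14). Of lymphatic genes 5 of 7 were measured. Pdpn (podoplanin), which podocytes and fibroblasts also make, rose (3.02), Lyve1 rose (0.63, but 0.55 and 0.56 and not called without UUO mouse 2 or 5) and Prox1, the factor that defines lymphatic endothelium but is also found in the tubule, fell (-0.72).

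Most T cell, neutrophil and dendritic cell genes were below 0.5 FPKM in the sham mean. Genes that low entered the table through groups where they were higher, so the counts for these 3 cell types are descriptions only. Among T cell genes 12 of 15 were measured, each of them below that level, and 10 rose. Lck, a kinase of T cells, averaged 3.16 ± 1.45 FPKM in UUO kidneys and 0.341 ± 0.0809 FPKM in sham kidneys (log2 fold change 1.57, standard error 0.18, adjusted p = 3.05e-07). Cd3e, part of the T cell receptor complex, averaged 0.706 FPKM in UUO kidneys and 0.109 FPKM in sham kidneys (log2 fold change 0.59, standard error 0.11, adjusted p = 0.000128), and lost its call on leaving out UUO mouse 4 or 5 or sham mouse 2 or 5 (0.48 to 0.57). Of 5 NK and cytotoxic cell genes measured (of 8), 3 rose (median 0.72). Of the 5, 4 were below 0.5 FPKM in the sham mean, so this count too is a description only. Nkg7, of cytotoxic cells, rose most (1.74). Of 5 B and plasma cell genes measured (of 9), 2 rose (40.0%, against 32.6% of all genes). Jchain, the joining chain of antibodies, averaged 10.7 ± 6.39 FPKM in UUO kidneys and 3.3 ± 1.94 FPKM in sham kidneys (log2 fold change 1.31, standard error 0.47, adjusted p = 0.0182), and lost its call without UUO mouse 1 (adjusted p = 0.0519) or 5 (adjusted p = 0.0549), while Cd79a, of the B cell receptor, was at 0.00. All 8 of the 8 neutrophil genes measured (of 11) rose, 6 of them from below 0.5 FPKM in the sham mean. S100a9, a subunit of calprotectin, had 24.1, 65.5, 5.88, 54.0 and 6.8 FPKM in UUO kidneys, against 1.46, 0.994, 1.12, 0.736 and 0.575 FPKM in sham kidneys (log2 fold change 3.48, standard error 0.50, adjusted p = 4.65e-06), and S100a8, its partner, rose by 2.74. Of 10 dendritic cell genes 9 rose, and 8 of the 10 were below 0.5 FPKM in the sham mean. Cd209a, of monocyte-derived dendritic cells, rose most (2.26), and Xcr1 and Clec9a, of cross-presenting dendritic cells, rose by 0.70 and 1.07. None of the 6 mast cell genes is in the table. Of 7 measured red blood cell genes none passed. Hba-a1 and Hbb-bs, which encode globins, were at -0.51 and 0.14; without sham mouse 3, Hba-a1 was called lower (-0.74).

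All 12 urothelial genes rose (median 2.36). The urothelium lines the renal pelvis and holds uroplakin plaques. Upk1a, a uroplakin, had 6.08, 113, 21.5, 53.3 and 30.9 FPKM in UUO kidneys, against 8.4, 3.33, 3.64, 6.79 and 4.19 FPKM in sham kidneys (log2 fold change 2.40, standard error 0.56, adjusted p = 0.000759), and UUO mouse 1 lay within the sham range. Krt5, a keratin of its basal cells, had 6.32, 198, 42.6, 74.6 and 45.2 FPKM in UUO kidneys, against 1.14, 0.567, 3.98, 2.66 and 1.04 FPKM in sham kidneys (log2 fold change 4.15, standard error 0.63, adjusted p = 9.34e-06). The mean level of the list differed more between UUO kidneys than for any segment, 6.13 in mouse 2 and 2.52 in mouse 1. How much of the pelvis each sample held is not given in the sources used here, and its part in these values was not tested.

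Smooth muscle genes gave 7 of 10 calls, all higher, and 5 after rescaling. Of the 10, 4 were below 0.5 FPKM in the sham mean and entered the table through groups where they were higher. Tagln and Acta2, which myofibroblasts share, rose by 3.11 and 2.56, and Cnn1 (calponin) by 1.39. Myh11, the smooth muscle myosin that myofibroblasts have least of, averaged 4.89 ± 3.45 FPKM in UUO kidneys and 3.62 ± 1.28 FPKM in sham kidneys (log2 fold change 0.22, standard error 0.26, adjusted p = 0.446). Nerve and Schwann cell genes gave 3 of 4 higher, led by Scn7a (1.56), and 2 of the 4 were below that level in sham kidneys. Perirenal fat and adrenal genes were high in 1 UUO kidney. Cfd (adipsin), made by fat cells, had 1.22, 16.2, 1.05, 18.1 and 166 FPKM in UUO kidneys, against 6.41, 0, 0.249, 10.6 and 19.5 FPKM in sham kidneys, and did not pass (log2 fold change 1.36, standard error 1.19, adjusted p = 0.313). Over 8 fat genes the mean log2(FPKM + 1) was 4.50 in UUO mouse 5, against 1.06 to 1.89 in the other UUO kidneys and 0.82 to 2.26 in sham kidneys; over 4 adrenal genes it was 2.25, against 0.20 to 0.43 and 0.08 to 0.13. Fabp4, which capillaries and macrophages also make, was the only fat gene to rise (1.47).

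**Figure D3:**
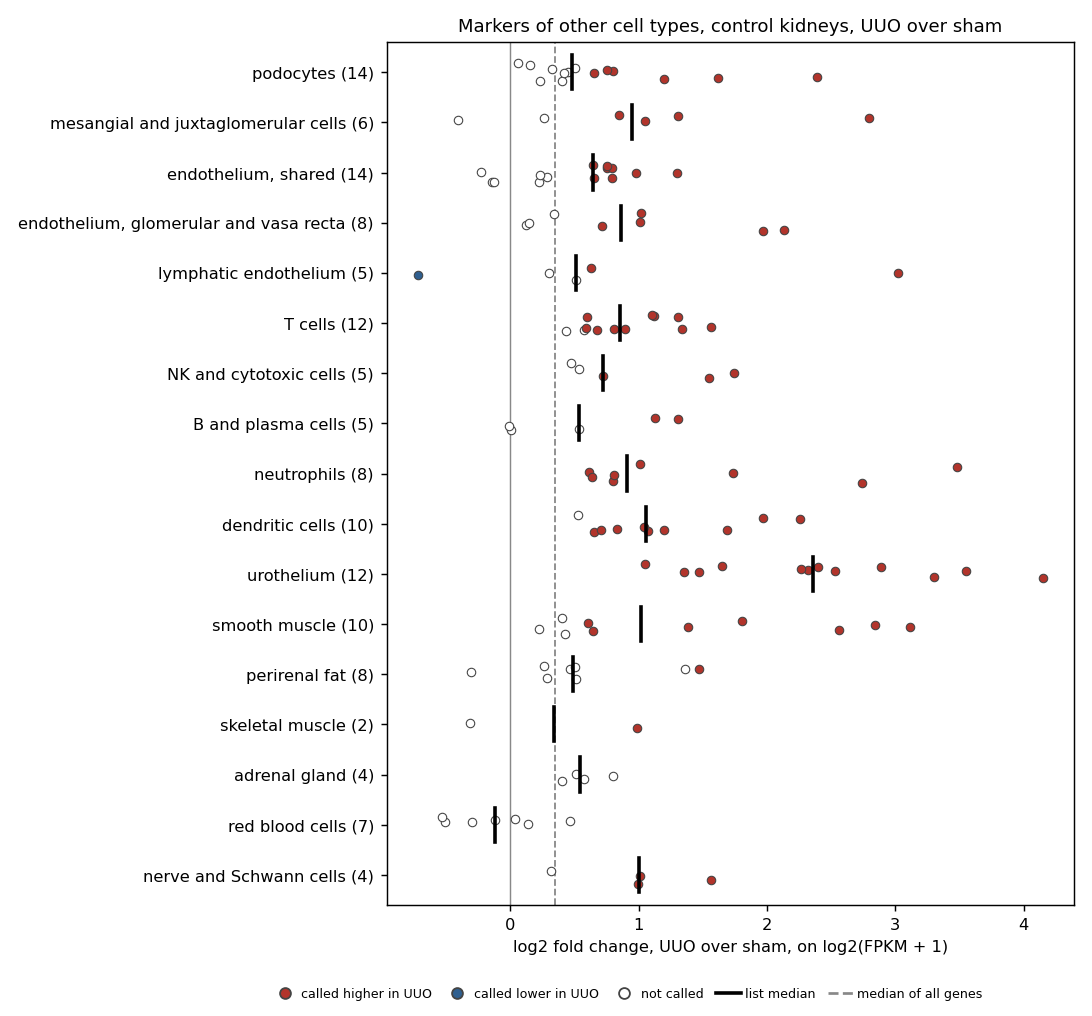
Log2 fold change (UUO over sham, on log2(FPKM + 1), horizontal axis) of marker genes of other cell types, drawn as in the plot of nephron segments, with the number measured in parentheses. All 12 urothelium genes and all 8 neutrophil genes were called higher, none of 7 red blood cell genes was called, and the medians were 0.48 for podocytes, 0.64 for shared endothelium and 0.86 for glomerular and vasa recta endothelium, against the dashed all-gene median of 0.35. Of the neutrophil genes 6 were below 0.5 FPKM in the sham mean.

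**Figure D4:**
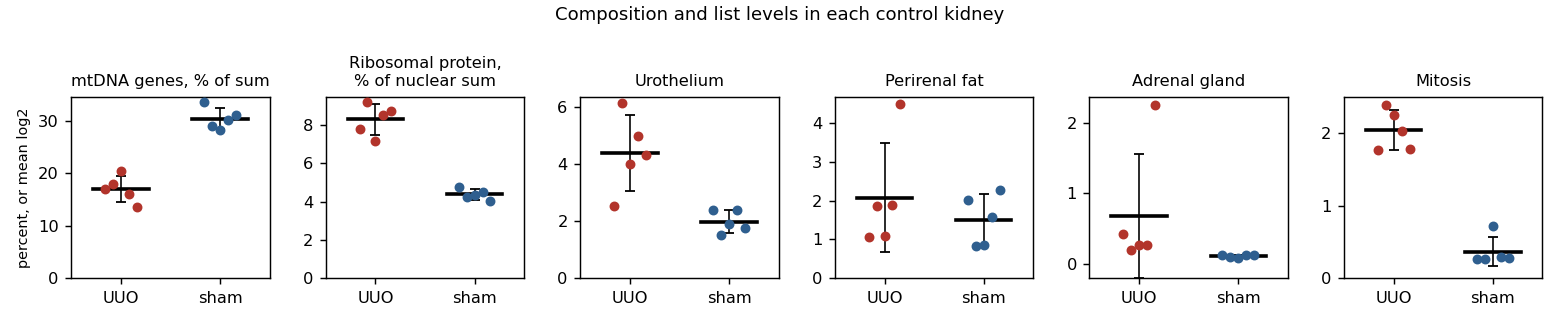
Composition of the RNA in each of 5 UUO kidneys (red, left) and 5 sham kidneys (blue, right), with the mean (bar) and SD (whiskers). The first panel gives a percentage of summed FPKM, the second a percentage of the FPKM of nuclear genes, and the last 4 the mean log2(FPKM + 1) of a list. UUO mouse 2 is highest for urothelium, UUO mouse 5 for fat and adrenal gland, and sham mouse 3 is the highest sham for mitosis.

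Genes of cell division were at low levels in sham kidneys. All 22 measured mitosis genes were called higher (median 1.56), but 20 of them were below 0.5 FPKM in the sham mean and entered the table through groups where they were higher, so this count is a description only. Of 16 DNA replication genes, 3 of them below that level in sham kidneys, 13 rose (median 1.02). Mki67, which encodes the proliferation antigen Ki-67, had 5.93, 10.1, 9.38, 7.6 and 5.24 FPKM in UUO kidneys, against 0.274, 0.221, 1.24, 0.295 and 0.215 FPKM in sham kidneys (log2 fold change 2.59, standard error 0.22, adjusted p = 4.53e-09). The highest sham value was again from mouse 3. Ccnb2 (cyclin B2), which takes cells into mitosis, averaged 8.12 ± 2.48 FPKM in UUO kidneys and 0.604 ± 0.511 FPKM in sham kidneys (2.51), and Cdc20, which lets them leave it, averaged 5.58 ± 1.45 FPKM in UUO kidneys and 0.499 ± 0.284 FPKM in sham kidneys (2.12). Uhrf1, which copies DNA methylation at replication forks, rose most of the replication genes (2.77). Growth arrest genes rose at the same time. Of 17 measured p53 targets 13 rose: Cdkn1a (p21), which halts the cycle, had 26.6, 49.0, 29.1, 24.6 and 25.7 FPKM in UUO kidneys, against 9.1, 2.76, 3.94, 1.97 and 1.54 FPKM in sham kidneys (log2 fold change 2.86, standard error 0.27, adjusted p = 1.96e-08), and Phlda3, an inhibitor of AKT, rose by 2.25, while Ccng1, another p53 target, was at -0.27.

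The promoters of mitosis genes share letters, shown here as a description of the list, with motifs chosen after the values were seen. The cell cycle genes homology region (CHR) reads TTTGAA and the box bound by NF-Y reads CCAAT. In the 300 bases from 250 before to 50 after the start (RefSeq, GRCm38.p6; both strands searched), 12 of 17 mitosis genes with an entry held TTTGAA (70.6%), against 14.6% of the 10699 genes with an entry, and 15 held CCAAT (88.2%, against 42.4%). DNA replication genes held TTTGAA in 2 of 14 (14.3%) and CCAAT in 10 of 14 (71.4%), so a high share of CCAAT was not particular to mitosis genes. A match describes the letters and not a bound site. The last 200 bases of 4 such windows follow, 5′ to 3′ on the gene's strand, with TTTGAA and CCAAT or their reverse complements in capitals, from Ccnb2 (chr9:70421505-70421704, minus strand), Cdc20 (chr4:118437294-118437493, minus strand), Top2a (chr11:99024140-99024339, minus strand) and Cdk1 (chr10:69352863-69353062, minus strand).
Ccnb2: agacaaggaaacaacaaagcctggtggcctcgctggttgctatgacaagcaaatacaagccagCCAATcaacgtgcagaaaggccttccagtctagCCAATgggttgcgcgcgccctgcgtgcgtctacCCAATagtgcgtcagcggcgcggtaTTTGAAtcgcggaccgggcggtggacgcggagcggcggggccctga
Cdc20: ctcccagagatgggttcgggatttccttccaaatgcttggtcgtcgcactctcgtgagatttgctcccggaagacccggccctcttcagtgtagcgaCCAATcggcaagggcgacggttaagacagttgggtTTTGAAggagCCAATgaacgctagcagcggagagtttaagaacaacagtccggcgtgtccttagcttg
Top2a: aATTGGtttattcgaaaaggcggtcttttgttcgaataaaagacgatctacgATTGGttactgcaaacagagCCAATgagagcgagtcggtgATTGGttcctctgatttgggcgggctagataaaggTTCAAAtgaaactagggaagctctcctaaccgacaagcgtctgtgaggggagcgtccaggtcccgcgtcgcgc
Cdk1: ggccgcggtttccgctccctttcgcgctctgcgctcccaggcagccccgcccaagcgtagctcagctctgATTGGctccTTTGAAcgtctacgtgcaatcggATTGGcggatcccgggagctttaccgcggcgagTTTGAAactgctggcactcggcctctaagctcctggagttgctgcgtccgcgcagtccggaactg
In these stretches Ccnb2 holds 3 CCAAT boxes and 1 TTTGAA, Cdc20 holds 2 and 1, Top2a (topoisomerase 2A, log2 fold change 2.25) holds 4 and 1, and Cdk1, the kinase of cyclin B (log2 fold change 1.88), holds 2 and 2.

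Interferon and antigen presentation genes rose almost without exception. Of 23 measured interferon-stimulated genes 22 rose (median 1.49), 20 of them after rescaling. Isg15, a ubiquitin-like protein, had 22.5, 11.2, 14.3, 28.8 and 27.9 FPKM in UUO kidneys, against 2.84, 3.06, 4.3, 3.23 and 2.66 FPKM in sham kidneys (log2 fold change 2.30, standard error 0.24, adjusted p = 8.3e-08). Ifi27l2a had the largest rise (3.22), and Rsad2 (viperin) did not pass (0.48), except without UUO mouse 3 or sham mouse 1 (0.59 each). All 16 antigen presentation genes rose (median 1.94). H2-Eb1, a class II chain, averaged 412 ± 178 FPKM in UUO kidneys and 31.0 ± 11.2 FPKM in sham kidneys (log2 fold change 3.64, standard error 0.25, adjusted p = 2.89e-10), Cd74, the invariant chain, had 369, 256, 329.5, 509 and 646 FPKM in UUO kidneys, against 49.1, 75.2, 122, 32.6 and 62.4 FPKM in sham kidneys, and B2m, the light chain of class I on all cells, averaged 909.9 ± 98.6 FPKM in UUO kidneys and 287 ± 30.6 FPKM in sham kidneys (1.66). Dendritic cell and macrophage genes, which these cells share with the class II list, rose in the same kidneys, and their part in it was not tested. Of 13 measured complement genes 10 rose and 1 fell. Cfi, which inactivates C3b, averaged 28.9 ± 5.17 FPKM in UUO kidneys and 2.05 ± 1.29 FPKM in sham kidneys (3.37), Cfb, of the alternative pathway, averaged 106 ± 14.1 FPKM in UUO kidneys and 123 ± 13.8 FPKM in sham kidneys (log2 fold change -0.21, standard error 0.13, adjusted p = 0.152), and C1rl fell (-0.70).

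Of 16 interferon-stimulated genes with a RefSeq promoter, 9 (56.3%) held the response element, spelled TTTC, any 2 bases and TTTC again, on either strand in the same window, against 3.94% of all genes; 1 of 17 mitosis genes held it. The stretches below are the last 200 bases for Isg15 (chr4:156200769-156200968, minus strand) and Ifit1 (chr19:34640739-34640938, plus strand; log2 fold change 2.08), with matches, which overlap in Isg15, in capitals.
Isg15: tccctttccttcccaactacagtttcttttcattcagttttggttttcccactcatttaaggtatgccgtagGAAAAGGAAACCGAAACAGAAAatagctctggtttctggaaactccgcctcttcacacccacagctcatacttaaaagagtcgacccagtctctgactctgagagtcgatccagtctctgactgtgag
Ifit1: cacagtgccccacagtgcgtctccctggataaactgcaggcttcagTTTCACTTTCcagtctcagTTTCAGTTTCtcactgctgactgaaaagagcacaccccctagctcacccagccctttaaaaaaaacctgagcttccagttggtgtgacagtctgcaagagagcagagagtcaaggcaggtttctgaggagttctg
In Isg15 the capitals read as the reverse complement, with 3 overlapping matches, and Ifit1 holds 2 separate ones.

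Metabolic genes fell in several pathways at once. All 10 genes of gluconeogenesis and fructose use fell (median -1.59). Pck1, the enzyme that commits carbon to new glucose, had 248, 343, 275, 266 and 164 FPKM in UUO kidneys, against 1459, 1058, 981, 1441 and 1179.9 FPKM in sham kidneys (log2 fold change -2.25, standard error 0.46, adjusted p = 0.000253). G6pc, which frees the glucose, averaged 21.7 ± 7.05 FPKM in UUO kidneys and 129.98 ± 16.7 FPKM in sham kidneys (-2.58). In the tricarboxylic acid cycle 13 of 18 genes fell and none rose (median -0.89). Suclg1, a subunit of succinyl-CoA ligase, fell most (-1.58), whereas Cs, citrate synthase, averaged 33.8 ± 0.921 FPKM in UUO kidneys and 38.4 ± 3.07 FPKM in sham kidneys (log2 fold change -0.17, standard error 0.07, adjusted p = 0.035). Of 17 genes that break down amino acids other than the branched-chain ones, 13 fell (median -1.54), with Dmgdh, of choline and glycine breakdown, lowest (-2.23) and Oat, ornithine aminotransferase, highest (0.43, not called).

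Glycolysis did not move as a block. Of 18 genes 6 rose and 2 fell (33.3% and 11.1%, against 32.6% and 8.1% of all genes), and after rescaling 4 rose and 8 fell. Hk2, the hexokinase induced in growing cells, had 7.94, 7.62, 5.83, 3.98 and 6.36 FPKM in UUO kidneys, against 0.126, 0.0505, 0.475, 0.217 and 0.135 FPKM in sham kidneys (log2 fold change 2.59, standard error 0.17, adjusted p = 2.32e-10). Pkm, pyruvate kinase, rose by 0.72 on the log2 scale but not after rescaling (0.44), Pfkm, the muscle phosphofructokinase, fell (-0.90), and Ldha, lactate dehydrogenase, averaged 120.0 FPKM in UUO kidneys and 109.8 FPKM in sham kidneys (0.12). Of the pentose phosphate genes 1 of 7 rose, Pgls (0.60), which missed the fold limit without UUO mouse 1, UUO mouse 5 or sham mouse 2 (0.53 to 0.56). In cholesterol synthesis 4 of 21 rose and 3 fell, from Fdps (1.10) to Cyp51 (-1.33). In fatty acid synthesis 4 of 10 rose (40.0%, against 32.6% of all genes) and 1 fell, Fads2 (-1.13).

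Antioxidant genes fell more often than they rose. Of 15 genes of glutathione and peroxide defence 10 fell and none rose. Gpx3, the plasma glutathione peroxidase that the proximal tubule secretes, had 1002, 710.0, 785, 617 and 579 FPKM in UUO kidneys, against 6469.6, 5835, 4691, 8041 and 5583 FPKM in sham kidneys (log2 fold change -3.05, standard error 0.44, adjusted p = 5.1e-06). Cat, catalase, averaged 189 ± 40.8 FPKM in UUO kidneys and 534 ± 45.0 FPKM in sham kidneys (-1.52), and Gpx1, the cytosolic peroxidase, averaged 370.3 FPKM in UUO kidneys and 233 FPKM in sham kidneys (log2 fold change 0.62, standard error 0.58, adjusted p = 0.343). Among 9 measured NRF2 targets 1 rose, Hmox1, heme oxygenase 1 (0.76), and 3 fell, among them Nqo1 (-0.60). Hmox1 lost its call without sham mouse 2 (0.61, adjusted p = 0.0577) or 5 (0.55), and Nqo1 without UUO mouse 1 or 5 or sham mouse 1 or 4 (-0.57 to -0.42). Genes of the unfolded protein response, which the endoplasmic reticulum calls up under load, rose in 12 of 16 (median 1.08). The list median was 1.31 in the identifier series of mice 1 to 3 of each group and 0.72 in that of mice 4 and 5. Hspa5 (BiP), its main chaperone, had 174, 216, 200.2, 126 and 132 FPKM in UUO kidneys, against 26.3, 86.8, 33.8, 107 and 41.4 FPKM in sham kidneys (log2 fold change 1.68, standard error 0.36, adjusted p = 0.000409), and Atf3, a stress factor, rose most (3.33), while Herpud1 was at -0.54 (called lower without UUO mouse 1 or 2, at -0.69 and -0.68, and after upper quartile rescaling, at -0.83). Of 11 heat shock genes 6 rose (54.5%, against 32.6% of all genes), and 2 rose after rescaling, where 22.3% of all genes did. The list median was 0.70 in the series of mice 1 to 3 and -0.08 in that of mice 4 and 5. In UUO mice 1 to 3 the mean log2(FPKM + 1) of the list was 6.29 to 6.77. It was 5.67 and 5.61 in UUO mice 4 and 5, and 5.29 to 5.52 in sham kidneys. Hspd1, the mitochondrial chaperone HSP60, fell (-0.92). Hspb1 (HSP27), a small chaperone of the cytoskeleton, averaged 223 ± 47.5 FPKM in UUO kidneys and 13.2 ± 5.11 FPKM in sham kidneys (log2 fold change 4.03, standard error 0.25, adjusted p = 9.18e-11).

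Most cytosolic ribosomal protein genes rose. Of 81 cytosolic ones 72 rose and 1 fell (median 0.97), and 54 rose after rescaling. Together they made up 7.19% to 9.23% of the FPKM of nuclear genes in UUO kidneys, against 4.03% to 4.76% in sham kidneys. Rplp0, of the ribosomal stalk, had 425, 458, 330.1, 427 and 440.2 FPKM in UUO kidneys, against 219.7, 221, 228, 219.7 and 210.0 FPKM in sham kidneys (log2 fold change 0.91, standard error 0.09, adjusted p = 2.45e-08). The exception was Rpl3l, a muscle paralogue of Rpl3, which fell (-1.30), while Rpl3 rose (0.83). Ribosomal protein genes have many processed copies in the genome, and how reads shared among copies were assigned can shift such values. Of 75 mitochondrial ones, encoded in the nucleus, 4 rose and 1 fell (median 0.01), and after rescaling 2 rose and 13 fell. All 13 genes encoded in mitochondrial DNA fell, by 0.69 to 1.49 on the log2 scale. They made up 13.5% to 20.5% of summed FPKM in UUO kidneys, against 28.3% to 33.6% in sham kidneys, and mt-Cytb, of complex III, averaged 6712 ± 1211 FPKM in UUO kidneys and 15734 ± 1806 FPKM in sham kidneys. Quantile normalization, which forces the top ranks of all kidneys to the same values, turned mt-Co1 to 0.22, against -0.84 without it. Of 37 proteasome genes 6 rose and none fell; Psmb8, Psmb9 and Psmb10, subunits that interferon induces, were at 2.72, 1.36 and 2.67. Of 16 lysosome genes 6 rose (37.5%, against 32.6% of all genes). Ctss, cathepsin S of macrophages and dendritic cells, rose most (4.04), while the membrane proteins Lamp1 and Lamp2 were at -0.07 and -0.14.

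**Figure D5:**
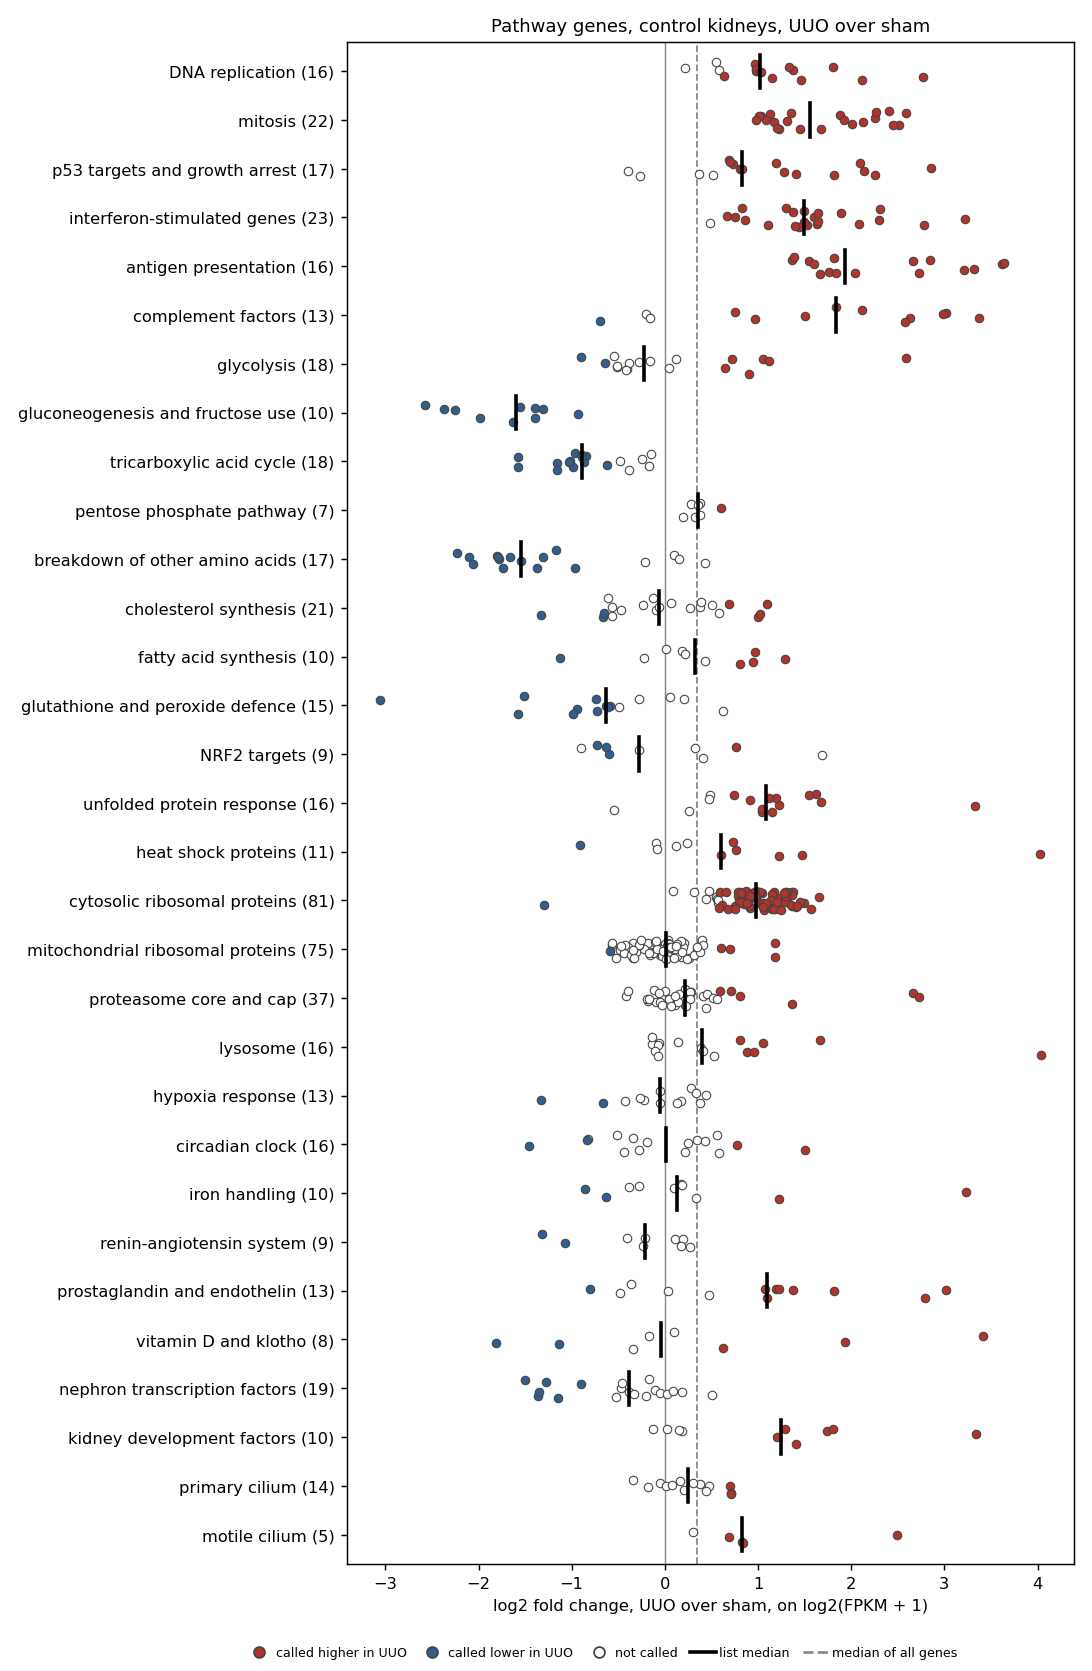
Log2 fold change (UUO over sham, on log2(FPKM + 1), horizontal axis) of the genes of each pathway, drawn as in the plot of nephron segments, with the number measured in parentheses. Antigen presentation genes were all called higher, as were mitosis genes, 20 of which were below 0.5 FPKM in the sham mean, gluconeogenesis and fructose genes all lower, and mitochondrial ribosomal, proteasome and hypoxia genes mostly not called.

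Genes of kidney hormones rose and fell within the same system. Kl (klotho), the coreceptor for the phosphate hormone FGF23, had 18.5, 12.9, 23.0, 16.005 and 13.8 FPKM in UUO kidneys, against 37.5, 79.7, 71.5, 54.3 and 69.3 FPKM in sham kidneys (log2 fold change -1.81, standard error 0.20, adjusted p = 1.44e-07). Vdr, the vitamin D receptor, averaged 28.4 ± 2.62 FPKM in UUO kidneys and 65.7 ± 17.9 FPKM in sham kidneys and fell (-1.14). Cyp27b1, which activates vitamin D, had 3.99, 5.38, 6.76, 7.86 and 11.1 FPKM in UUO kidneys, against 0.604, 0.241, 1.02, 2.2 and 1.52 FPKM in sham kidneys (log2 fold change 1.93, standard error 0.24, adjusted p = 9e-07), while Cyp24a1, which degrades it, was at -0.17. Gc, the vitamin D carrier of plasma, averaged 121 ± 44.6 FPKM in UUO kidneys and 11.6 ± 5.7 FPKM in sham kidneys (log2 fold change 3.41, standard error 0.42, adjusted p = 7.94e-07). In the renin-angiotensin system 2 of 9 measured genes fell, Ace (-1.31) and the peptidase Anpep (-1.07), while Agt was at 0.10. Of 13 measured prostaglandin and endothelin genes 8 rose and 1 fell. Edn1, endothelin 1, a vasoconstrictor, had 24.8, 11.03, 18.9, 12.8 and 11.8 FPKM in UUO kidneys, against 1.33, 0.732, 2.08, 0.891 and 0.31 FPKM in sham kidneys (log2 fold change 3.02, standard error 0.24, adjusted p = 2.71e-09), Ptgds, a prostaglandin D synthase, rose by 2.79, and Ptger3, a prostaglandin E2 receptor of the thick limb, fell (-0.80).

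Among other pathways, hypoxia targets moved little, with 2 of 13 measured genes lower and none higher. Vegfa averaged 23.9 FPKM in UUO kidneys and 28.4 FPKM in sham kidneys (-0.23), and Car9, a target of HIF1, fell (-1.33). Of 10 measured iron genes, Cp (ceruloplasmin), an iron oxidase, rose (3.23), as did Slc40a1, the iron exporter ferroportin (1.22), and Fth1, the ferritin heavy chain, fell (-0.63). Fth1 lost its call without UUO mouse 5 or sham mouse 1 (-0.58 each) and was higher in UUO under quantile normalization (0.48). Of 16 clock genes 2 rose and 2 fell, from Bhlhe40 (1.504) to Hlf (-1.45), and Arntl and Per2, of the core loop, were at 0.25 and 0.34. The hour at which kidneys were taken is not given in the sources used here. Primary cilium genes rose in 3 of 14, none after rescaling, with Pkd1, mutated in polycystic kidney disease, at 0.70 and Pkd2 at -0.19. Of motile cilium genes 5 of 10 were measured, 3 of them below 0.5 FPKM in the sham mean, and 4 rose. Foxj1, their master factor, had 8.35, 3.42, 4.33, 4.65 and 6.85 FPKM in UUO kidneys, against 0.0543, 0.101, 0.425, 0.0516 and 0 FPKM in sham kidneys (log2 fold change 2.49, standard error 0.22, adjusted p = 7.48e-09), with no overlap between the groups.

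Within gene families, members moved in opposite directions. Of 16 claudins, which seal or open the space between cells, 10 rose and 1 fell. Cldn1, a sealing claudin of Bowman's capsule, had 53.5, 53.3, 47.5, 46.3 and 53.6 FPKM in UUO kidneys, against 7.97, 3.27, 7.25, 5.02 and 3.41 FPKM in sham kidneys (log2 fold change 3.09, standard error 0.18, adjusted p = 4.61e-11), and Cldn4, Cldn3 and Cldn7, of tight distal epithelia, rose by 2.94, 2.08 and 2.01. Cldn2, the cation and water pore of the proximal tubule, had 0.0088, 87.5, 117, 95.0 and 97.3 FPKM in UUO kidneys, against 108, 129, 125, 104 and 133 FPKM in sham kidneys. UUO mouse 1 alone was near 0, and the gene did not pass (log2 fold change -1.59, standard error 0.91, adjusted p = 0.123), nor without that kidney (-0.27, adjusted p = 0.456). Of 9 measured aquaporins 4 fell and none rose. Among FXYD proteins and subunits of the sodium pump, Fxyd2, the pump's partner in the tubule, fell by 0.66, a call that was lost without UUO mouse 2 (-0.54). In contrast Fxyd5, Fxyd3 and Fxyd6, other members of the family, rose by 1.97, 1.75 and 1.53, and Atp1b2 rose by 1.60. Of 13 carbonic anhydrases 2 rose and 5 fell, from Car13 (2.05) to Car14, of the proximal brush border (-1.82). Of 3 metallothioneins Mt1 and Mt2, which bind zinc, rose by 0.66 and 1.59, and Mt1 lost its call without UUO mouse 2 (0.56). Near-identical members of families such as the Slc22, Cyp2d, H2 and Sprr2 genes can share reads, so single values there are less certain.

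Outside the 3 lists set aside, the 10 largest rises among genes whose groups did not overlap were Sprr2f, Ubd, Mmp7, Cxcl2, Serpina10, Cxcl1, Ccl7, Gm9844, Ivl and Krt5. Sprr2f, a small proline-rich protein of barrier epithelia, had 52.96, 218, 97.2, 74.5 and 65.8 FPKM in UUO kidneys, against 0.13, 0, 9.55, 0 and 0.294 FPKM in sham kidneys (log2 fold change 5.70, standard error 0.52, adjusted p = 1.58e-08). Ubd, a ubiquitin-like modifier that cytokines induce, averaged 82.0 ± 16.9 FPKM in UUO kidneys and 2.53 ± 2.21 FPKM in sham kidneys (4.72). Mmp7 (matrilysin), a protease of stressed epithelium, had 47.2, 25.6, 15.6, 32.4 and 39.9 FPKM in UUO kidneys, against 0, 0.132, 1.22, 0 and 0.252 FPKM in sham kidneys (log2 fold change 4.63, standard error 0.28, adjusted p = 9.6e-11). Cxcl1 and Cxcl2, which draw neutrophils, rose by 4.31 and 4.37, and Ccl7, which draws monocytes, by 4.30. The 10 largest falls were Pvalb, Egf, Cyp2d9, Slco1a1, Hpd, Nccrp1, Slc7a13, Cyp4a12a, Fcamr and Gpx3. Egf, the growth factor of the thick limb and distal convoluted tubule, had 5.82, 8.39, 5.57, 8.8 and 2.93 FPKM in UUO kidneys, against 112, 129, 84.4, 96.9 and 84.5 FPKM in sham kidneys (log2 fold change -3.86, standard error 0.42, adjusted p = 1.62e-07). Hpd, of tyrosine breakdown, fell by 3.51, and Fcamr, a receptor for IgA and IgM, fell by 3.16. Egf and Pvalb are genes of the distal nephron, while Cyp2d9, Slco1a1, Slc7a13 and Cyp4a12a are male-biased proximal genes.

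Scaling decided the call of some named genes. After upper quartile rescaling Cd3e (0.51), Dmrt2 (0.52), Hmox1 (0.49), Lyve1 (0.56), Mt1 (0.38), Pgls (0.34), Pkd1 (0.52) and Rpl3 (0.54) were no longer called, nor were Pecam1, Cdh5 and Pkm, while Agtr1a (-0.66), Aqp3 (-0.98), Avpr2 (-0.69), Foxi1 (-0.60), Hba-a1 (-0.80), Herpud1 (-0.83), Slc2a2 (-0.79) and Wnk4 (-0.81), like Umod, were called lower.

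In KDM6ATubKO kidneys, which lack the KDM6A demethylase in the tubule, the same contrast of 5 UUO and 5 sham kidneys gave median log2 fold changes of -1.90, -2.45 and -2.09 for segments 1 to 3 of the proximal tubule and -0.27 for principal cells, against -1.30, -2.10, -1.99 and -0.16 in KDM6ACtrl kidneys. The urothelium median was 0.92, against 2.36, and the mitosis median 1.51, against 1.56. The mean level of the urothelium list ranged from 2.52 to 6.13 between KDM6ACtrl UUO kidneys. Differences between the genotypes in list medians were not tested. For single genes the difference between the genotypes in the response was tested by an interaction term, which called 4 of 13842 genes (0.0289%) at an adjusted p below 0.05. One of them was on a list: Foxm1, a factor that drives mitosis genes, changed by 0.03 in KDM6ATubKO kidneys and by 0.97 in KDM6ACtrl kidneys (interaction -0.95, adjusted p = 0.0167). It had 0.217, 0.114, 0.198, 0.0626 and 0.0938 FPKM in KDM6ATubKO UUO kidneys, against 0.92, 1.71, 1.63, 0.673 and 1.32 FPKM in KDM6ACtrl UUO kidneys. Foxm1 was above 0.5 FPKM on average only in KDM6ACtrl UUO kidneys and entered the table through that group, so its call is a description of a gene kept for being high there.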

How the data were processed

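RNA of 20 left kidneys was sequenced by the study (poly(A) enrichment, stranded paired-end libraries). The submitters' processing notes name cutadapt, HISAT2, StringTie and GRCm38, without versions, and the study's methods name Ballgown. The authors deposited FPKM for 13842 genes, used here as deposited. A transcript table was not used. FPKM carry no counts, so the depth is unknown and no count model was run. Whether mice of 1 group shared cages or days is not given.

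All 20 kidneys entered 1 fit of log2(FPKM + 1) with limma 3.58.1 in R 4.3.3 (1 mean per group, eBayes with trend), and tables were made with pandas 2.3.3 and numpy 2.4.6, and plots with matplotlib 3.10.9, under Python 3.11.15. A filter at a group mean of 0.5 FPKM removed 0 genes. Calls needed a Benjamini-Hochberg adjusted p below 0.05 over all genes and a fold of at least 1.5. On simulated data, 200 changed genes were drawn from those well above the floor in sham kidneys, with changes larger than the fold limit. Of these, 194 were recovered, and 6 unchanged genes were called. The simulation held no scaling shift and far fewer changed genes than were called here. It therefore does not measure recovery of genes near 0 or near the fold limit. Where genes shared a symbol, the one with the highest mean was named.

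The 72 gene lists, written from general knowledge, and the genes named were chosen with earlier results of these data known, so they are no independent evidence. Genes named were the 4 defining genes of a list, its highest and lowest member, members called against the majority, the 10 largest changes each way, the 10 most abundant genes, and genes near 0 in sham kidneys only; some of these are not reported here. Other members named were chosen after their values were seen, as were the motifs. Mice are numbered 1 to 5 within a group in the order of the records. Promoters came from a RefSeq table of GRCm38.p6, matched by symbol. Alternatives were another pseudocount, filter, scaling, fit, covariate and sample weight, and leaving out each mouse.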

Additional observations from a re-analysis of the deposited data

Results flagged for a closer look

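Values were compared within each group of 5 kidneys by Dixon's test, which by chance marks about 1 group in 20. Of 614 groups of values for genes and lists 59 (9.61%) were marked for 1 kidney far from the others, 25 of them in sham mouse 3 and 10 in sham mouse 1. UUO mouse 1 lay above the other UUO kidneys in FPKM for Plat (29.7, against 20.1 to 22.5), Gc (199.6, against 89.1 to 112) and Cyp24a1 (41.6, against 18.0 to 21.0). UUO mouse 1 lay below the other UUO kidneys in FPKM for Cldn2 (0.0088, against 87.5 to 117). UUO mouse 1 lay below the other UUO kidneys in the mean log2(FPKM + 1) of a list for thin limbs (2.60, against 2.97 to 3.11). UUO mouse 2 lay above the other UUO kidneys in FPKM for Cdkn1a (49.0, against 24.6 to 29.1). UUO mouse 2 lay below the other UUO kidneys in FPKM for Cfb (82.3, against 107 to 118) and Irx3 (19.6, against 24.0 to 25.2). UUO mouse 3 lay below the other UUO kidneys in FPKM for Rplp0 (330.1, against 425 to 458), Sox4 (51.7, against 78.4 to 89.9) and Ptger3 (3.7, against 5.16 to 5.8). UUO mouse 5 lay below the other UUO kidneys in FPKM for Slc34a1 (123, against 208 to 239.7) and Cldn10 (35.8, against 39.2 to 40.2). UUO mouse 5 lay above the other UUO kidneys in the mean log2(FPKM + 1) of a list for perirenal fat (4.50, against 1.06 to 1.89) and adrenal gland (2.25, against 0.20 to 0.43). Sham mouse 1 lay above the other sham kidneys in FPKM for Slc22a15 (0.281, against 0.181 to 0.202) and Sall1 (15.7, against 11.2 to 12.3). Sham mouse 1 lay below the other sham kidneys in FPKM for Slc34a1 (303, against 559 to 611), Slc22a6 (183, against 261 to 269), Cs (33.1, against 38.8 to 40.5), Hnf4a (124, against 149 to 161) and Actb (106, against 171 to 201). Sham mouse 1 lay above the other sham kidneys in the mean log2(FPKM + 1) of a list for hypoxia response (4.12, against 3.85 to 3.89). Sham mouse 1 lay below the other sham kidneys in the mean log2(FPKM + 1) of a list for cholesterol synthesis (3.02, against 3.32 to 3.41) and Slc22 organic ion transporters (4.51, against 4.89 to 5.04). Sham mouse 3 lay above the other sham kidneys in FPKM for Cldn14 (0.181, against 0 to 0.046), S100a8 (1.09, against 0.292 to 0.441), Mki67 (1.24, against 0.215 to 0.295), Top2a (0.589, against 0.0788 to 0.15), Uhrf1 (1.17, against 0.217 to 0.344), Phlda3 (2.68, against 1.48 to 1.77), Sox11 (0.26, against 0.0199 to 0.038), Foxj1 (0.425, against 0 to 0.101), Sprr2f (9.55, against 0 to 0.294), Mmp7 (1.22, against 0 to 0.252), Serpina10 (3.06, against 0.0773 to 0.209), Cxcl2 (1.63, against 0 to 0.0402), Cxcl1 (6.9, against 0.713 to 1.46), Ccl7 (1.92, against 0 to 0.17), Ivl (3.47, against 0.27 to 0.812), Cdk1 (0.431, against 0.0379 to 0.11), Fcrls (0.435, against 0 to 0.0385), Prss22 (0.377, against 0 to 0.0602) and Spp1 (1059, against 271 to 363). Sham mouse 3 lay above the other sham kidneys in the mean log2(FPKM + 1) of a list for mitosis (0.72, against 0.26 to 0.29), antigen presentation (3.85, against 3.36 to 3.47), lysosome (5.67, against 5.42 to 5.47), tubule injury (4.03, against 2.57 to 2.96) and macrophages and monocytes (2.21, against 1.33 to 1.55). Sham mouse 3 lay below the other sham kidneys in the mean log2(FPKM + 1) of a list for intercalated cells, type B (2.69, against 2.86 to 2.90). Sham mouse 4 lay above the other sham kidneys in FPKM for Slc22a8 (208, against 141 to 149) and Gapdh (152, against 106 to 112). Sham mouse 4 lay below the other sham kidneys in FPKM for Foxi1 (11.1, against 17.5 to 18.8), Ccl17 (0, against 0.304 to 0.449) and Car9 (3.4, against 4.71 to 5.32). Sham mouse 5 lay below the other sham kidneys in FPKM for Gc (2.66, against 11.1 to 18.2), Cp (2.91, against 8.6 to 11.7), Slc40a1 (3.13, against 4.43 to 5.0) and Cldn7 (4.59, against 7.19 to 8.21). The genes and lists share kidneys, so these marks are not independent, and their causes were not tested.

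Foxm1 was marked because its response differed between the genotypes by the interaction term (-0.95 on the log2 scale, adjusted p = 0.0167 from limma): it changed by 0.03 in KDM6ATubKO kidneys and by 0.97 in KDM6ACtrl kidneys. The gene entered the table through KDM6ACtrl UUO kidneys, the one group in which it averaged above 0.5 FPKM. Cldn2 in KDM6ATubKO kidneys had 69.4, 97.6, 83.7, 71.6 and 18.4 FPKM after UUO, against 87.0, 119, 97.0, 106.7 and 95.5 FPKM after sham surgery, so among the 10 UUO kidneys of both genotypes only 1 was near 0.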

How the results depend on the processing

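No paired analysis was run, because UUO and sham kidneys came from different mice. Of the genes called higher (4519) and lower (1121), quantile normalization gave 2184 and 2352, and upper quartile rescaling gave 3090 and 1767. Against the fit without rescaling these moved the all-gene median log2 fold change by -0.40 and -0.21. An F-test built like Ballgown's, with library size as a term, called 0 and 0, with 873 higher and 265 lower at an unadjusted p below 0.05. That term was the sum of log2(FPKM + 1) over genes below the upper quartile of each kidney, and its values are not reported here. Summed FPKM, which did not enter that test, was 298467 to 316828 in UUO kidneys and 347739 to 360923 in sham kidneys. Leaving out 1 mouse gave 4330 to 4757 higher and 1084 to 1158 lower. Pseudocount 0.1, a filter at a mean of 1 FPKM, a fit of the 2 groups alone, identifier series, array weights and a rescaling to summed nuclear FPKM (chosen after seeing the data) kept both counts within 1.5 times. The interaction called 4 genes, 9 after upper quartile rescaling and 3 with pseudocount 0.1. Of 236 genes followed, 214 kept their call and direction in every fit that left out 1 mouse; upper quartile rescaling left 214 as they were and quantile normalization 209, where mt-Co1 (0.22) and Fth1 (0.48) reversed. List medians changed sign for 5 of 71 lists under upper quartile rescaling and 7 under quantile normalization. The largest main medians among these were those of lymphatic endothelium (0.51 and -0.07 under quantile normalization), skeletal muscle (0.34 and -0.18) and primary cilium (0.25 and -0.28), and circadian clock genes were at 0.01 and -0.49. Leaving out 1 mouse changed the sign of 6 list medians in 14 fits. Of these changes the largest shift was that of perirenal fat (0.49, and -0.16 without UUO mouse 5). Within each of the 2 identifier series (3 UUO and 3 sham mice, and 2 and 2), taken separately after seeing the data, 63 list medians had the same sign. FPKM hold no counts, so the depth of each kidney and the counting error of low genes are unknown.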

Other observations

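By the rule of less than 0.5 FPKM in every sham kidney and at least 5 FPKM in every UUO kidney, 6 genes had a clear level in UUO kidneys only. Ccl17, a chemokine that draws T cells, averaged 12.7 ± 7.4 FPKM in UUO kidneys and 0.286 ± 0.169 FPKM in sham kidneys (log2 fold change 3.28). Serpina3g, a protease inhibitor, averaged 9.67 ± 3.22 FPKM in UUO kidneys and 0.224 ± 0.16 FPKM in sham kidneys, and Prss22, an epithelial serine protease, averaged 8.14 ± 2.56 FPKM in UUO kidneys and 0.0875 ± 0.164 FPKM in sham kidneys. Bcl2a1a, a survival factor of leukocytes, averaged 7.31 ± 1.86 FPKM in UUO kidneys and 0.238 ± 0.073 FPKM in sham kidneys. Fcrls and Ms4a6d, genes of macrophages, averaged 9.25 ± 2.69 FPKM in UUO kidneys and 0.0948 ± 0.191 FPKM in sham kidneys for Fcrls and 6.52 ± 0.977 FPKM in UUO kidneys and 0.137 ± 0.125 FPKM in sham kidneys for Ms4a6d.

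Genes often used to scale PCR data were not all steady. Of 13, 3 rose, Actb (1.91), Rplp0 (0.91) and Hprt (0.78), and Sdha fell (-1.03). Actb (beta-actin) averaged 639 ± 153 FPKM in UUO kidneys and 169.6 ± 37.8 FPKM in sham kidneys. Tbp and Gusb were at 0.10 and 0.14 on the log2 fold change scale, and Gapdh was at -0.52, or -0.59 and called lower without UUO mouse 1. After upper quartile rescaling Hprt was not called (0.50) and Gapdh was called lower (-0.80). The most abundant transcripts of sham kidneys were 9 genes of mitochondrial DNA and Kap. In UUO kidneys Spp1 (osteopontin), on the injury list, joined the 10 highest, with 6817 ± 545 FPKM in UUO kidneys and 470.5 ± 331 FPKM in sham kidneys.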
